A study of Mus musculus with 288 samples.

Results

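Chemokines and their receptors were followed in mouse liver, white fat and lung over the day. The members are all genes whose symbol starts with Ccl, Cxcl, Ccr, Cxcr, Xcl, Xcr or Cx3c and then names a numbered ligand or receptor. Of 16825 genes listed in any deposited table, 45 met this rule: 18 CC ligands, 13 CXC ligands, 6 CC receptors, 5 CXC receptors, Cx3cl1, Cx3cr1 and Xcl1. Of these, 35 were abundant enough to be tested in at least 1 tissue and 8 in all 3 tissues.

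The control mice carried Cre recombinase under the albumin promoter (Alb-Cre), which acts in hepatocytes, the main cells of the liver. The mutant mice (BLKO) carried the same Cre and in addition Bmal1 fl/fl, floxed alleles of Bmal1, a core gene of the circadian clock that the tables list as Arntl. All were C57BL/6 mice of 3 months kept in 12 h of light and 12 h of dark. In each genotype, food was available at all hours (ad libitum) or, for 30 days, during the hours of light alone (daytime-fed), and tissue was taken at 12 labelled times over 24 h with 2 libraries per time, so that each group held 24 libraries per tissue and the series 288 libraries. The labels do not say which clock hour time 0 is, and they name no animals, so p-values here measure the spread between libraries.

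Chemokines are small secreted proteins that guide the movement of leukocytes, and each acts through receptors coupled to G proteins on the cells that respond. CXC ligands such as Cxcl1 and Cxcl5 attract neutrophils through Cxcr2, CC ligands such as Ccl2 attract monocytes through Ccr2, and Cxcl12 holds Cxcr4-bearing cells in bone marrow and other tissues. In liver, fat and lung these signals come from parenchymal cells, endothelium, fibroblasts and resident macrophages. In bulk tissue, fewer cells of a type and less RNA per cell cannot be told apart.

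Levels are given as CPM, the count scaled to a fixed total per library by its deposited sum, and are compared between libraries for the same gene, never between genes. A 24 h rhythm, a change of the daily mean and a change of the rhythm were each tested with edgeR's quasi-likelihood test across all genes of the tissue, and "edgeR adjusted p" below is the Benjamini-Hochberg value over all of those genes, with a threshold of 0.05. Peak times and peak-to-trough values come from a fitted 24 h cosine on log2 CPM and are given ± SE. Log2 changes of the daily mean are daytime-fed minus ad libitum, ± SE.

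Library totals ran from 1214842 to 5462461 counts in liver, from 1365001 to 5040306 in white fat and from 923122 to 3973976 in lung. Arntl had a 24 h rhythm in Alb-Cre liver under both feeding schedules (edgeR adjusted p = 1.2e-13 and 2.1e-11) and none past the threshold in BLKO liver (edgeR adjusted p = 0.51 ad libitum and 0.79 daytime-fed). Its liver medians, ad libitum then daytime-fed, were 9.71 and 6.62 CPM in Alb-Cre and 10.9 and 8.50 CPM in BLKO, so the level itself was not lower in BLKO. The labels do not give the deleted part of the gene, and counts from outside it would not show the deletion. In white fat and lung, Arntl was rhythmic in all 4 groups. Liver libraries had median summed levels of 6 hepatocyte markers from 62207 to 84641 CPM, white fat libraries of 5 adipocyte markers from 31938 to 48138 CPM, and lung libraries of 5 alveolar type 2 markers from 36217 to 48572 CPM over the groups. By their distance from the other libraries of their group, 2 liver libraries, 4 white fat libraries and 1 lung library stood apart: BLKO ad libitum liver 0B and 4B, Alb-Cre daytime-fed fat 0B, BLKO ad libitum fat 0B and 4B, BLKO daytime-fed fat 0A, and Alb-Cre ad libitum lung 20B, named by labelled hour and library letter. In a fit "without the libraries standing apart", chosen after seeing the data, these 5 combinations of group, hour and letter were left out of every tissue. Each genotype was deposited in its own table per tissue, so the genotype cannot be told apart from the table.

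Lung held the most members. In lung, 43 were listed in either genotype's table, 42 in both and 26 were tested among 11949 genes. Under ad libitum feeding, 6 of 26 members were rhythmic in Alb-Cre lung, where 15% of all genes tested were, and 3 of 26 in BLKO lung, where 12.7% were. Under daytime feeding the shares over all genes were 1.39% in Alb-Cre and 1.07% in BLKO lung, with 1 and 3 members called. Daytime feeding changed the rhythm of 1 member in Alb-Cre (0.745% of all genes) and of 3 in BLKO (1.87%), and the neutrophil-attracting ligands Cxcl5 and Cxcl15 are among these.

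Cxcl5 (chr5:90759360-90761624, mm10, plus strand) is a ligand of Cxcr2 that draws neutrophils into the airways. In Alb-Cre lung its lowest, median and highest values over 24 libraries were 0, 2.47 and 23.3 CPM ad libitum and 0.418, 2.9 and 7.29 CPM daytime-fed. In BLKO lung they were 0, 3.36 and 14.7 CPM ad libitum and 0.439, 2.59 and 7.74 CPM daytime-fed. The ranges of the feeding groups overlap in both genotypes, and the highest libraries were ad libitum. Under ad libitum feeding the highest libraries were those of 22 h and 0 h in Alb-Cre and of 0 h in BLKO.

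Ad libitum Alb-Cre libraries had 23.3 and 16.0 CPM of Cxcl5 at 22 h and 10.7 and 17 CPM at 0 h, against means of 0.728 CPM at 8 h and 0.780 CPM at 12 h. At 22 h the mean of the daytime-fed Alb-Cre libraries was 4.02 CPM, and their highest mean was 5.52 CPM at 18 h. The peak seen ad libitum was lower and less distinct with daytime feeding. In BLKO lung, the ad libitum mean was 12.9 CPM at 0 h and 0.50 CPM at 12 h, and the daytime-fed mean was 6.40 CPM at 18 h and 1.01 CPM at 4 h.

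The fitted peak-to-trough of Cxcl5 in Alb-Cre lung was 3.37 ± 0.35 on the log2 scale ad libitum, 10.3-fold, with a peak at 22.8 ± 0.4 h (edgeR adjusted p = 9.0e-15). Daytime-fed Alb-Cre lung had a fitted value of 0.96 ± 0.35 that did not pass the test (edgeR adjusted p = 0.21). BLKO lung had 2.55 ± 0.35 ad libitum, 5.86-fold, peaking at 22.6 ± 0.5 h (edgeR adjusted p = 3.5e-08). With daytime feeding BLKO lung had a rhythm of 1.72 ± 0.35, 3.29-fold, peaking earlier at 18.1 ± 0.8 h (edgeR adjusted p = 0.00084). The rhythm changed with feeding in Alb-Cre (edgeR adjusted p = 0.0016) and in BLKO lung (edgeR adjusted p = 0.00086). A difference between the genotypes in that change was not detected (edgeR adjusted p for the interaction = 0.95), so the rhythm call in daytime-fed BLKO and its absence in daytime-fed Alb-Cre are not shown to differ. Cxcl5 rests on few reads, with medians of 5.5, 6, 9 and 6 reads in the groups in the order above and 69 reads at the most, and a smaller prior count of 0.5 widened its fitted peak-to-trough to 4.23, 3.29 and 2.18 in the 3 rhythmic groups.

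**Figure D1:**
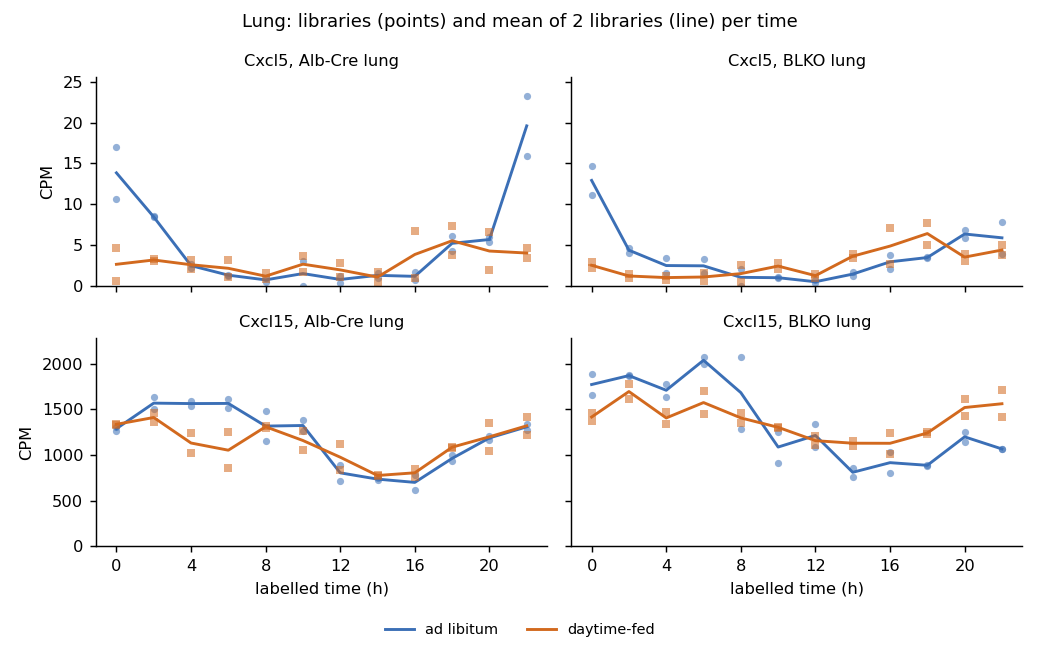
Cxcl5 and Cxcl15 in lung by labelled time (h, x axis) in CPM (y axis), with Alb-Cre in the left and BLKO in the right panels, points for the 2 libraries of each time and lines for their mean. Ad libitum Cxcl5 is highest at 22 h in Alb-Cre, with a mean of 19.6 CPM, and at 0 h in BLKO, with 12.9 CPM, and no daytime-fed mean is above 6.40 CPM, while Cxcl15 is rhythmic in all 4 groups.

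Cxcl15 (lungkine, chr5:90794534-90803067, plus strand) is a CXC ligand of lung epithelium that attracts neutrophils in mice, and it had the highest median count among the lung's CXC ligands. It lies in the same gene cluster as Cxcl5 and Cxcl1. The 250 bases before its start are shown because Cxcl15 was the only member rhythmic in all 4 groups of a tissue. Capitals mark TATAAA, which starts 27 bases before the RefSeq start (RefSeq, GRCm38.p6, chr5:90794284-90794533, plus strand). TATAAA occurs in 12.4% of 32851 promoters of this length, on either strand.
Cxcl15: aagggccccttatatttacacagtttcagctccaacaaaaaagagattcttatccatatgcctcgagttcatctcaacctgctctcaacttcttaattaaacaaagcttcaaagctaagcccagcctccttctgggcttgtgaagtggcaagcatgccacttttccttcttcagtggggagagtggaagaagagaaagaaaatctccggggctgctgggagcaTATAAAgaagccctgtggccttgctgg

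In Alb-Cre lung Cxcl15 ran from 618 through a median of 1267 to 1632 CPM ad libitum and from 759 through 1169 to 1456 CPM daytime-fed. In BLKO lung it ran from 763 through 1257 to 2078 CPM ad libitum and from 1014 through 1364 to 1779.5 CPM daytime-fed. The groups overlap and their daily means did not change with feeding past the threshold (edgeR adjusted p = 0.80 in Alb-Cre and 0.63 in BLKO). The peak came at 3.4 ± 0.4 h in ad libitum Alb-Cre lung, with a peak-to-trough of 1.08 ± 0.11 on the log2 scale or 2.11-fold (edgeR adjusted p = 3.6e-11), and at 1.9 ± 0.8 h daytime-fed, with 0.56 ± 0.11 or 1.48-fold (edgeR adjusted p = 0.0048). BLKO lung peaked at 4.0 ± 0.4 h ad libitum, with 1.21 ± 0.11 or 2.31-fold (edgeR adjusted p = 5.3e-14), and at 1.9 ± 0.9 h daytime-fed, with 0.50 ± 0.11 or 1.41-fold (edgeR adjusted p = 0.019). Feeding changed the rhythm in BLKO (edgeR adjusted p = 0.0020) and not past the threshold in Alb-Cre (edgeR adjusted p = 0.10), and the difference between the genotypes was not detected (edgeR adjusted p = 0.98). The call in daytime-fed Alb-Cre lung was lost without the libraries of 14 h (edgeR adjusted p = 0.13) or 16 h (edgeR adjusted p = 0.054), and with only the groups compared (edgeR adjusted p = 0.088). The call in daytime-fed BLKO lung was lost without 2, 12, 14, 16 or 18 h (highest edgeR adjusted p = 0.094). Of 5 alveolar type 2 markers, 2 were rhythmic in ad libitum Alb-Cre lung (Abca3 and Sftpa1), 2 in ad libitum BLKO lung (Abca3 and Sftpb), 1 in daytime-fed BLKO lung (Abca3) and none past the threshold in daytime-fed Alb-Cre lung, and their part in the Cxcl15 rhythm was not tested.

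The other rhythmic lung members had smaller amplitudes. In ad libitum Alb-Cre lung, Ccl6, a CC ligand of mouse macrophages, ran from 90.8 through 143 to 289.8 CPM and peaked at 24 ± 1.1 h with a peak-to-trough of 0.75 ± 0.21 on the log2 scale (edgeR adjusted p = 0.015). Cxcl10, an interferon-induced ligand of Cxcr3, ran from 2.13 through 4.25 to 14.5 CPM and peaked at 6.2 ± 1.2 h with 0.90 ± 0.28 (edgeR adjusted p = 0.018, and at the most 0.068 without 6 or 8 h). Ccr7, the receptor that takes dendritic cells and lymphocytes to lymph nodes, ran from 5.65 through 15.1 to 28.4 CPM and peaked at 5.5 ± 1.0 h with 0.98 ± 0.26 (edgeR adjusted p = 0.022). In the same group, where 15% of all genes were rhythmic, 4 of 6 T cell markers tested (Cd3d, Cd4, Lck and Thy1) and 2 of 2 NK cell markers (Gzma and Nkg7) were called. So were 1 of 5 B cell markers (Cd79a), 1 of 4 monocyte markers (Fn1) and 1 of 5 alveolar macrophage markers (Ear2). None of 8 macrophage, 4 dendritic cell, 7 neutrophil or 3 plasma cell markers tested was called. The part of these markers was not tested. Ccr7 lost its call without the libraries standing apart (edgeR adjusted p = 0.060) and without 4, 6, 16 or 18 h (highest edgeR adjusted p = 0.13). Ccl27a, whose reads cannot be told apart from near-identical mouse copies, ran from 24.5 through 30.8 to 45.5 CPM (peak 21.6 ± 1.2 h, edgeR adjusted p = 0.038) and also lost its call without them (edgeR adjusted p = 0.067) and without any of 8 times (highest edgeR adjusted p = 0.15). In ad libitum BLKO lung, Cxcl12 ran from 69.6 through 142 to 167 CPM, peaking at 11.9 ± 1.0 h with 0.46 ± 0.12 (edgeR adjusted p = 0.042), which was lost without the libraries standing apart (edgeR adjusted p = 0.15) and without any of 9 times (highest edgeR adjusted p = 0.14). This Cxcl12 call was also lost with only the groups compared (edgeR adjusted p = 0.21).

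Ccl19, a ligand of Ccr7 made by lymph node stroma, was called rhythmic in daytime-fed BLKO lung (edgeR adjusted p = 0.0014) and changed in rhythm there (edgeR adjusted p = 0.012). Its values ran from 0 through 1.69 to 57.5 CPM, and the highest was library A of 22 h. Without the libraries of 22 h the rhythm was no longer called (edgeR adjusted p = 0.75), nor was its change (edgeR adjusted p = 0.36), which was also lost without 10 h (edgeR adjusted p = 0.10). That library also had the highest summed T cell (194 CPM), B cell (303 CPM) and lymph node stroma (44.9 CPM) markers of its group, against group medians of 74.9, 141 and 12.6 CPM. The lymph node stroma sum rests on the 2 of 5 markers listed for both genotypes, and is not shown to measure lymph node stroma. Ccl19 has near-identical mouse copies and an annotated gene on the opposite strand, and its reads are uncertain for that reason.

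Few daily means changed in lung, near or below the shares over all genes. None of 26 members rose or fell in Alb-Cre lung, where 4.34% of all genes rose and 4.69% fell (edgeR; 1 member at an unadjusted p under 0.05, and 0 with DESeq2). In BLKO lung none rose (2.17% of all genes) and 1 fell (2.44%). The medians of the members' log2 changes were -0.01 in Alb-Cre and 0.03 in BLKO, beside 0.01 and -0.00 over all genes tested, and 13 of 26 members had opposite signs in the genotypes.

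The member that fell was Cxcl17, a mucosal CXC ligand of airway epithelium (chr7:25400053-25412886, minus strand). In BLKO lung it ran from 63.8 through 87.3 to 185 CPM ad libitum and from 58.5 through 71.9 to 87.2 CPM daytime-fed, and all 24 daytime-fed libraries lay below the ad libitum median. In Alb-Cre lung it ran from 67.6 through 88.4 to 119.6 CPM and from 54.1 through 89.8 to 122 CPM, with the feeding groups overlapping throughout. The change was -0.37 ± 0.08 in BLKO (edgeR adjusted p = 0.00059) and 0.02 ± 0.08 in Alb-Cre (edgeR adjusted p = 0.93). The difference between genotypes, -0.39 ± 0.11, passed the test (edgeR adjusted p = 0.0154), and it was the only such member of 26 in lung, where 5.72% of all genes passed. Without the libraries of 22 h this difference was -0.35 (edgeR adjusted p = 0.054). Of 3 club cell markers, Cyp2f2 and Scgb3a2 fell in the same comparison, and the summed club cell markers had medians of 53516 CPM ad libitum and 46998 CPM daytime-fed in BLKO against 47305 and 47298 CPM in Alb-Cre. Their part in the Cxcl17 result was not tested. No member's feeding effect on the rhythm differed between genotypes in lung, where 0% of all genes passed (edgeR; 4 members at an unadjusted p under 0.05, and 0 with DESeq2).

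No lung receptor changed its daily mean past the threshold with feeding. Cxcr4, the receptor of Cxcl12, had medians of 50.4 CPM ad libitum and 46.8 CPM daytime-fed in Alb-Cre and 38.5 and 34.2 CPM in BLKO. Ccr2, the monocyte receptor, had 7.79 and 8.29 CPM in Alb-Cre and 5.94 and 7.54 CPM in BLKO. Cxcr2, the receptor of Cxcl5 and Cxcl1 on neutrophils, had 2.35 and 3.65 CPM and 3.72 and 3.55 CPM. Cx3cl1, a membrane-bound ligand of endothelium and epithelium, had medians of 66.6 and 60.7 CPM in Alb-Cre and 109 and 104 CPM in BLKO, and its receptor Cx3cr1, found on monocytes and macrophages, had 8.36 and 9.18 CPM and 20.6 and 25.6 CPM. Ccl5, a T cell and eosinophil attractant with the highest median count of the lung's CC ligands, had 155 and 126 CPM and 118 and 124 CPM, with no called change. Ccl2, Cxcl1 and Cxcl13 were below the filter in lung, with group medians no higher than 2.68, 1.17 and 3.00 CPM.

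In liver, 30 members were listed in either table, 21 in both and 12 were tested among 9009 genes, all of them ligands. Rhythms were called for 3 of 12 members in ad libitum Alb-Cre (17.6% of all genes), 3 in daytime-fed Alb-Cre (19.7%), 1 in ad libitum BLKO (6.96%) and 2 in daytime-fed BLKO (7.75%). Feeding changed the rhythm of 3 in Alb-Cre (28.8%) and 2 in BLKO (15.2%). None differed between genotypes in that change, where 7.29% of all genes did (edgeR; 1 member at an unadjusted p under 0.05, and 0 with DESeq2).

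Cxcl12 (chr6:117168535-117181367, plus strand) is a ligand of Cxcr4 made by liver endothelium and stroma, and it had the highest median count among the liver's CXC ligands. Its promoter is shown because its rhythm changed with feeding in Alb-Cre liver while no change of its daily mean was called. None of the 5 motifs searched is in this window (RefSeq, GRCm38.p6, chr6:117168285-117168534, plus strand). The motifs were the E-box CACGTG, in 6.02% of promoters, the ROR element half-site AGGTCA, in 14%, TATAAA, the D-box TTATGTAA, in 0.819%, and the NF-kappaB consensus (kappaB site), in 0.356%, each on both strands and with no motif inside another.
Cxcl12: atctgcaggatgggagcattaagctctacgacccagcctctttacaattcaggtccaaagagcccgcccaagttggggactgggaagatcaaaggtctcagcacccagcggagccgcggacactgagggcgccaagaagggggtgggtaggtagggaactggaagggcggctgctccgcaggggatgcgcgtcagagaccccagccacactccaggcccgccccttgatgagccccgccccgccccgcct

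In Alb-Cre liver Cxcl12 ran from 176 through 237 to 300.2 CPM ad libitum and from 149.6 through 231 to 376 CPM daytime-fed. In BLKO liver it ran from 198 through 247 to 327 CPM and from 176 through 265 to 331 CPM. The ranges overlap almost wholly and the mean changed by 0.03 ± 0.05 in each genotype. In ad libitum Alb-Cre liver the highest mean was 282 CPM at 22 h, and in daytime-fed Alb-Cre liver it was 353 CPM at 4 h. The fitted peak lay at 20.5 ± 1.1 h ad libitum, with a peak-to-trough of 0.37 ± 0.10 (edgeR adjusted p = 0.023), and at 3.7 ± 0.6 h daytime-fed, 7.22 h later, with 0.65 ± 0.10 (edgeR adjusted p = 3.3e-06). The ad libitum call was lost without the libraries of 6, 8 or 20 h (highest edgeR adjusted p = 0.077). The rhythm changed in Alb-Cre liver (edgeR adjusted p = 2.0e-05). In BLKO liver no rhythm was called ad libitum (edgeR adjusted p = 0.53), the daytime-fed rhythm peaked at 4.4 ± 1.1 h and lay at the threshold (edgeR adjusted p = 0.0496, and up to 0.20 with any of 9 times left out), and the change (edgeR adjusted p = 0.043) was lost without the libraries standing apart (edgeR adjusted p = 0.18) and without any of 7 times (highest edgeR adjusted p = 0.25). The difference between genotypes was not detected (edgeR adjusted p = 0.29).

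**Figure D2:**
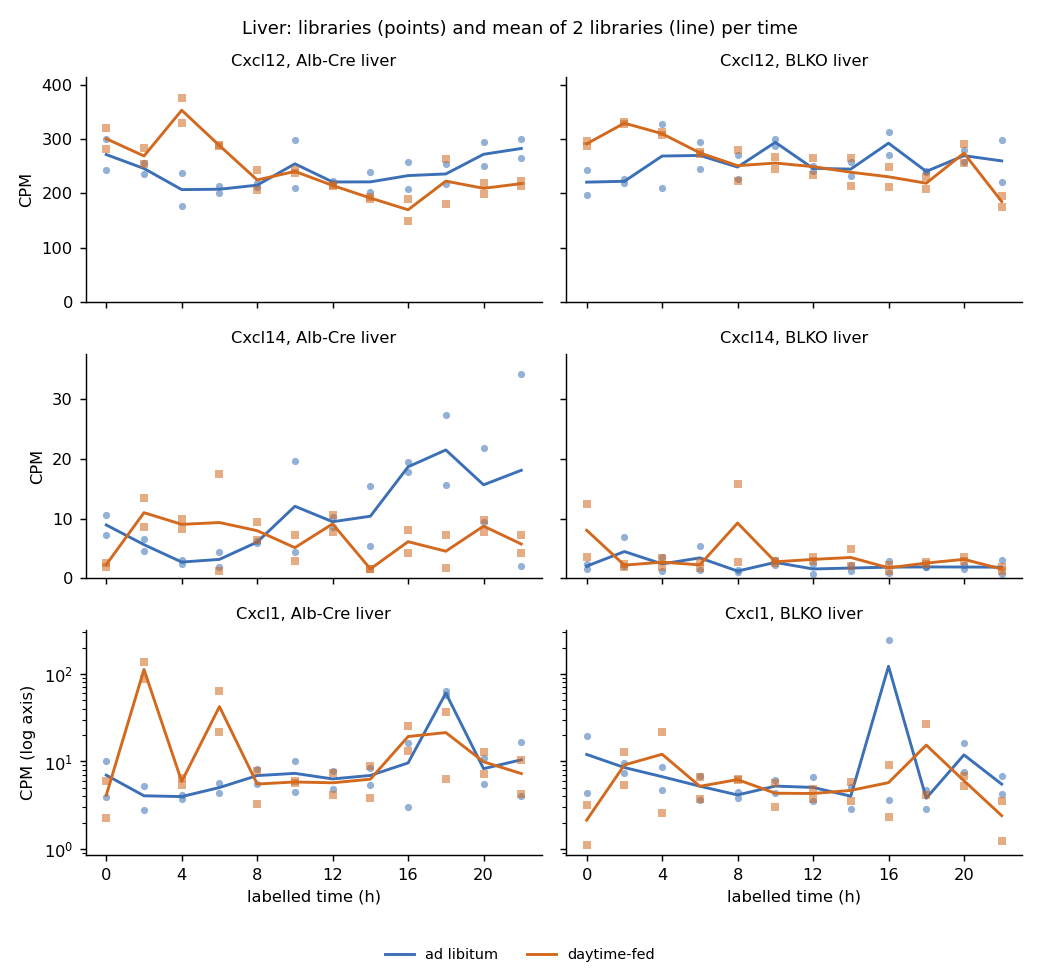
Cxcl12, Cxcl14 and Cxcl1 in liver by labelled time (h, x axis) in CPM (y axis, logarithmic for Cxcl1), with points for the 2 libraries of each time and lines for their mean. Cxcl12 in Alb-Cre liver is highest at 22 h ad libitum and at 4 h daytime-fed, Cxcl14 is rhythmic in ad libitum Alb-Cre liver, and Cxcl1 stands high at few times.

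Cxcl14 (chr13:56288643-56296551, minus strand), a CXC ligand that acts on monocytes and dendritic cells, had the largest fitted amplitude of the liver's members in ad libitum Alb-Cre. Its values ran from 1.91 through 8.00 to 34.2 CPM ad libitum and from 1.31 through 7.34 to 17.4 CPM daytime-fed in Alb-Cre liver. BLKO liver ran from 0.70 through 1.99 to 6.99 CPM and from 1.24 through 2.73 to 15.7 CPM. The rhythm in ad libitum Alb-Cre liver peaked at 17.2 ± 0.8 h with a peak-to-trough of 2.18 ± 0.47, 4.53-fold (edgeR adjusted p = 0.00051). With daytime feeding it was not called (0.65 ± 0.47, edgeR adjusted p = 0.49), and the change passed the test (edgeR adjusted p = 0.0010). BLKO liver had no called rhythm under either schedule, with edgeR adjusted p of 0.64 and 0.61, and the difference between genotypes was not detected (edgeR adjusted p = 0.21). Cxcl14 passed the filter on low counts alone in 1 of the 4 groups, with medians of 31 and 27.5 reads per library in Alb-Cre and 7.5 and 10 reads in BLKO, so a rhythm in BLKO liver was measured on few reads.

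Cxcl1 (chr5:90891241-90893115, plus strand), the neutrophil attractant of the acute phase, was called rhythmic in 3 liver groups on values that were high at few times. In ad libitum Alb-Cre liver it ran from 2.81 through 5.50 to 63.4 CPM, and both libraries of 18 h, with 57.2 and 63.4 CPM, stood above all others (edgeR adjusted p = 0.027, and 0.76 without 18 h). In daytime-fed Alb-Cre liver it ran from 2.29 through 7.24 to 136 CPM, with 88.4 and 136 CPM at 2 h and 21.5 and 63.1 CPM at 6 h (edgeR adjusted p = 0.039, and 0.97 without 2 h). In ad libitum BLKO liver, it ran from 2.85 through 4.95 to 241 CPM, and the 2 libraries of 16 h had 241 and 3.62 CPM (edgeR adjusted p = 0.010, and 0.68 without 16 h). Daytime-fed BLKO liver ran from 1.12 through 5.04 to 26.6 CPM with no call (edgeR adjusted p = 0.99). The ad libitum calls were each lost without 1 time, 18 h in Alb-Cre and 16 h in BLKO, and with only the groups compared the BLKO call was lost too (edgeR adjusted p = 0.083). The daytime-fed Alb-Cre call was lost without any of 7 times (2, 6, 8, 10, 12, 14 or 20 h, lowest edgeR adjusted p = 0.052) and with only the groups compared (edgeR adjusted p = 0.079). The change of rhythm in Alb-Cre (edgeR adjusted p = 0.0041) was lost without 2 h (edgeR adjusted p = 0.087) or 18 h (edgeR adjusted p = 0.061). The promoter is shown because it holds the kappaB site, marked in capitals, 71 bases before the start (RefSeq, GRCm38.p6, chr5:90890995-90891244, plus strand). The kappaB pattern searched leaves 1 base free, so a match need not have the letters shown here. On either strand, it was found in 3 of 35 promoters of 31 members and in 0.356% of 32851 promoters of this length. Whether these shares differ was not tested.
Cxcl1: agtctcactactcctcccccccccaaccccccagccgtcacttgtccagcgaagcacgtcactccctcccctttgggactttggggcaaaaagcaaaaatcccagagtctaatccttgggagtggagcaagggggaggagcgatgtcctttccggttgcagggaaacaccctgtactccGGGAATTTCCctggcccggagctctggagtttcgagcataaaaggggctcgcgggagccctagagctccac

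Changes of the daily mean in liver are given beside the shares over all genes. In Alb-Cre liver 1 of 12 rose (4.33% of all genes) and none fell (3.54%), and in BLKO liver 1 rose (2.24%) and 1 fell (2.01%). The medians of the members' log2 changes were 0.08 in Alb-Cre and -0.08 in BLKO, beside -0.00 and -0.01 over all genes. The feeding effect differed between genotypes for 2 of 12 members, Ccl6 and Ccl5, where 1.73% of all genes differed.

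Ccl6 (chr11:83587882-83593087, minus strand), a CC ligand of macrophages, ran in Alb-Cre liver from 0 through 4.06 to 7.41 CPM ad libitum and from 3.09 through 6.40 to 17.7 CPM daytime-fed, and 21 of 24 daytime-fed libraries lay above the ad libitum median. BLKO liver ran from 3.64 through 8.53 to 25.5 CPM and from 3.41 through 6.67 to 11.7 CPM, with the lower median under daytime feeding. It rose by 0.92 ± 0.18 in Alb-Cre (edgeR adjusted p = 0.000158), and the BLKO value was -0.40 ± 0.16 (edgeR adjusted p = 0.13). The difference, -1.32 ± 0.23, passed the test (edgeR adjusted p = 0.000539). Ccl6 rested on medians of 14, 24, 32.5 and 24.5 reads per library in the 4 groups.

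Ccl5 (chr11:83525778-83530518, minus strand) ran in Alb-Cre liver from 1.8 through 3.26 to 12.0 CPM ad libitum and from 1.98 through 5.23 to 35.8 CPM daytime-fed. In BLKO liver it ran from 2.61 through 6.70 to 27.2 CPM and from 2.33 through 5.09 to 13.9 CPM, so all 4 ranges overlap. Neither genotype passed alone, with 0.70 ± 0.24 in Alb-Cre (edgeR adjusted p = 0.051) and -0.52 ± 0.21 in BLKO (edgeR adjusted p = 0.15). The difference of -1.22 ± 0.32 did (edgeR adjusted p = 0.0238), and it was lost without the libraries of 4, 10, 16 or 22 h (-1.19 to -0.98, highest edgeR adjusted p = 0.13) or without library 22A of ad libitum BLKO liver (-0.97, limma adjusted p = 0.053). Of 8 macrophage markers, Cd163 rose with daytime feeding in each genotype and the other 7 passed the test in neither, and the summed markers had medians of 216 and 306 CPM in Alb-Cre and 269.7 and 289.9 CPM in BLKO. Their part in either difference was not tested.

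**Figure D3:**
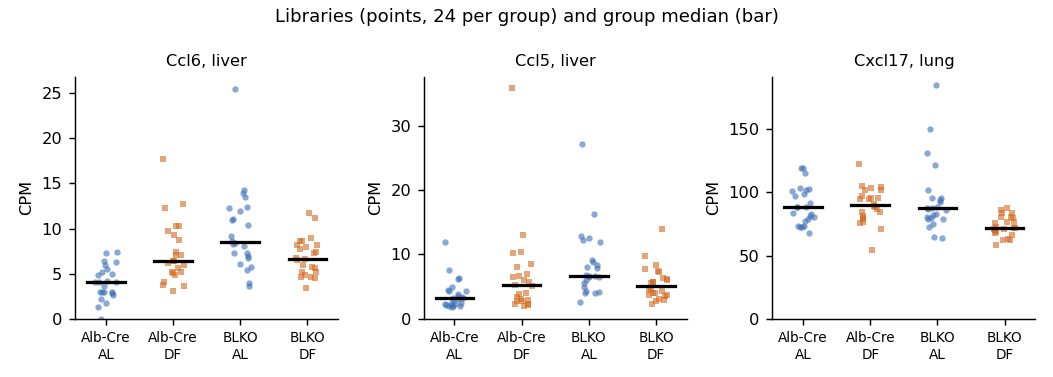
Ccl6 and Ccl5 in liver and Cxcl17 in lung in CPM (y axis) by group (x axis, AL ad libitum and DF daytime-fed), with 24 libraries per group as points and the group median as a bar. Ccl6 medians go from 4.06 to 6.40 CPM in Alb-Cre and from 8.53 to 6.67 CPM in BLKO, and the Cxcl17 median goes from 87.3 to 71.9 CPM in BLKO lung.

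In BLKO liver, Ccl24 (eotaxin-2), an eosinophil attractant that acts on Ccr3, rose from a range of 0 through 2.01 to 4.37 CPM to one of 1.32 through 3.36 to 7.35 CPM. The change was 0.71 ± 0.18 (edgeR adjusted p = 0.0101), with 21 of 24 daytime-fed libraries above the ad libitum median, and it was lost without 8 h (0.59, edgeR adjusted p = 0.051) or 20 h (0.57, edgeR adjusted p = 0.091). Cxcl10 ran from 5.51 through 10.9 to 39.5 CPM ad libitum and from 3.10 through 7.10 to 26.3 CPM daytime-fed in BLKO liver, a fall of 0.55 ± 0.17 (log2 change -0.55, edgeR adjusted p = 0.0443) with 18 of 24 daytime-fed libraries below the ad libitum median. That call was lost without the libraries standing apart (-0.43, edgeR adjusted p = 0.15) and without any of 8 times (-0.60 to -0.41, highest edgeR adjusted p = 0.17). In the same daytime-fed group Cxcl10 was rhythmic with a peak at 2.8 ± 1.1 h and a peak-to-trough of 1.15 ± 0.34 (edgeR adjusted p = 0.022, and up to 0.24 without 2, 4 or 14 h). Ccl9, a CC ligand of myeloid cells, changed in rhythm in BLKO liver (edgeR adjusted p = 0.035), with medians of 3.11 and 2.59 CPM, and this was lost without the libraries standing apart (edgeR adjusted p = 0.15) and without any of 8 times (highest edgeR adjusted p = 0.071). Ccl27a was rhythmic in daytime-fed Alb-Cre liver, from 16.6 through 20.5 to 33.0 CPM with a peak at 1.3 ± 1.2 h (edgeR adjusted p = 0.0448, 0.068 without the libraries standing apart and up to 0.17 with any of 7 times left out). Receptors were scarce in liver: Cxcr4 was listed in the BLKO table alone, with medians of 0.283 and 0 CPM, Cx3cr1 in the Alb-Cre table alone, with 0.644 and 0.264 CPM, and Cx3cl1, Ccl2 and Cxcl13 had medians no higher than 0.910, 1.42 and 0.363 CPM.

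White fat had 36 members in either table, 34 in both and 24 tested among 11065 genes. All members whose daily mean was called changed by feeding in fat fell. In Alb-Cre fat 3 of 24 fell with daytime feeding (4.91% of all genes) and none rose (4.89%), and in BLKO fat 5 of 24 fell (5.39%) and none rose (5.02%). With 1 time left out, the count was 0 to 6 in Alb-Cre and 3 to 6 in BLKO. The medians of the members' log2 changes were -0.18 in Alb-Cre and -0.22 in BLKO, beside 0.01 and 0.00 over all genes tested. Values lay below 0 for 17 of 24 members in Alb-Cre, against 48.4% of all genes, and for 16 of 24 in BLKO, against 49.7%. By sign alone, 14 of 24 were lower in both genotypes, 5 higher in both and 5 opposite.

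**Figure D4:**
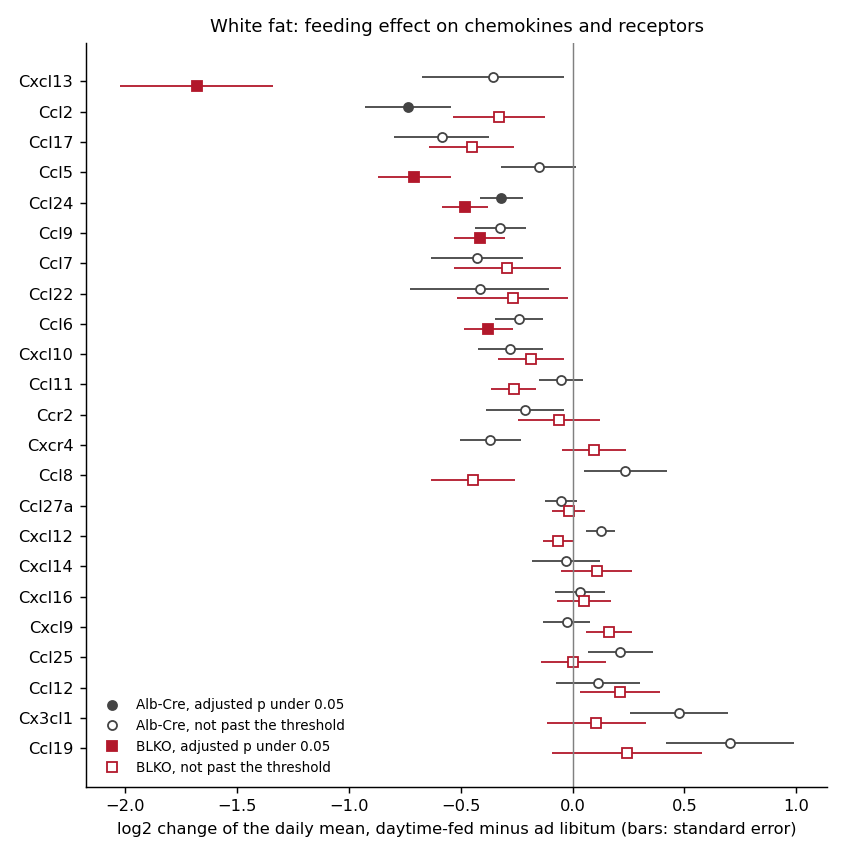
Log2 change of the daily mean in white fat, daytime-fed minus ad libitum (x axis, bars ± SE), for 23 of the 24 members tested (y axis) in Alb-Cre (circles) and BLKO (squares), with filled symbols for edgeR adjusted p under 0.05. All filled symbols lie below 0, from -0.32 for Ccl24 in Alb-Cre to -1.68 for Cxcl13 in BLKO.

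Ccl24 (chr5:135569937-135573049, minus strand) was the 1 member that fell in both genotypes. It ran from 24.3 through 42.0 to 62.3 CPM ad libitum and from 10.1 through 33.0 to 51.8 CPM daytime-fed in Alb-Cre fat. BLKO fat ran from 14.7 through 28 to 36.2 CPM and from 6.04 through 20.8 to 33.4 CPM. The ranges overlap, with 21 of 24 and 22 of 24 daytime-fed libraries below the ad libitum median. The changes were -0.32 ± 0.10 in Alb-Cre (edgeR adjusted p = 0.0216) and -0.48 ± 0.10 in BLKO (edgeR adjusted p = 0.00081). In Alb-Cre the call was lost without any of 5 times (2, 10, 12, 16 or 20 h, -0.31 to -0.27, highest edgeR adjusted p = 0.11) and without daytime-fed library 0B (-0.28, limma adjusted p = 0.059).

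Ccl2 (chr11:82035571-82037453, plus strand), the main monocyte attractant of fat, ran from 9.67 through 19.2 to 53.5 CPM ad libitum and from 3.68 through 10.3 to 34.8 CPM daytime-fed in Alb-Cre fat, with 22 of 24 daytime-fed libraries below the ad libitum median. It fell by 0.74 ± 0.19 (log2 change -0.74, edgeR adjusted p = 0.00756), and the value was lost as a call without 12 h (-0.63, edgeR adjusted p = 0.051) or 20 h (-0.55, edgeR adjusted p = 0.069). In BLKO fat its range was 1.55 through 11.8 to 27.8 CPM and 2.54 through 10.2 to 20.3 CPM, with a change of -0.33 ± 0.21 (edgeR adjusted p = 0.33). The difference between genotypes was 0.41 ± 0.28 (edgeR adjusted p = 0.46).

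The largest fall in fat was that of Cxcl13 (chr5:95956951-95961068, plus strand), the B cell attractant that acts on Cxcr5, in BLKO. Ad libitum it ran from 0.738 through 3.37 to 16.8 CPM, and daytime-fed from 0 through 0.897 to 5.14 CPM, with 23 of 24 daytime-fed libraries below the ad libitum median. The change was -1.68 ± 0.34 (edgeR adjusted p = 0.000386), on medians of 9.5 and 3 reads per library. Alb-Cre fat ran from 0.413 through 1.69 to 12.6 CPM and from 0 through 1.43 to 6.74 CPM (-0.35 ± 0.32, edgeR adjusted p = 0.53), and the difference between genotypes, -1.33 ± 0.47, did not pass the test (edgeR adjusted p = 0.092). The B cell marker Cd79b, 1 of 1 tested of 7 such markers, fell in BLKO fat as well, and the summed B cell markers had medians of 16.1 CPM ad libitum and 9.51 CPM daytime-fed. Their part was not tested.

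Beside Ccl24, the CC ligands that fell in BLKO fat were Ccl5, Ccl6 and Ccl9. Ccl5 ran from 17.6 through 34.1 to 156 CPM ad libitum and from 14.1 through 23.5 to 44.7 CPM daytime-fed (-0.71 ± 0.16, edgeR adjusted p = 0.00183). The value of 156 CPM came from 4B, 1 of the libraries standing apart, and without the libraries standing apart the change was -0.43 (edgeR adjusted p = 0.036). Ccl6, which had the highest median count of the fat's CC ligands, ran from 92.7 through 173 to 307 CPM and from 66.2 through 136 to 242 CPM (-0.38 ± 0.11, edgeR adjusted p = 0.0147), lost without 8 h (-0.31, edgeR adjusted p = 0.083) or 18 h (-0.34, edgeR adjusted p = 0.051). Ccl9 ran from 11.2 through 16.0 to 27.1 CPM and from 7.59 through 13.0 to 20.9 CPM (-0.41 ± 0.11, edgeR adjusted p = 0.00947), lost without 8 h (-0.34, edgeR adjusted p = 0.063). In all 3 the ranges overlap, with 20, 19 and 19 of 24 daytime-fed libraries below the ad libitum median. In Alb-Cre fat the same 3 had values of -0.15 ± 0.17, -0.24 ± 0.11 and -0.32 ± 0.11 with no call.

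Markers of several cell types changed in the same comparisons. Of 8 macrophage markers, Lyz2 fell in Alb-Cre fat and C1qa, C1qb and Lyz2 in BLKO fat, and their summed medians went from 1989.5 to 1709 CPM in Alb-Cre and from 1684 to 1394 CPM in BLKO. Summed monocyte markers went from 396 to 303 CPM and from 266 to 176 CPM, and of the 4 markers Fn1 fell in both genotypes while Plac8 rose in Alb-Cre. Of 3 alveolar macrophage markers tested, Ear2 fell in Alb-Cre and Marco in BLKO, while the summed list had medians of 49.5 and 61.8 CPM in Alb-Cre and 76.8 and 89.1 CPM in BLKO. Smooth muscle markers rose, 4 of 4 in Alb-Cre and 2 of 4 in BLKO (Acta2 and Myh11), with summed medians of 159 and 224 CPM and of 253 and 306 CPM. Of 5 fibroblast markers, Col1a2 and Col3a1 fell in Alb-Cre, and of 3 plasma cell markers tested, Mzb1 and Xbp1 fell in BLKO. The part of these markers in the falls of Ccl2, Ccl5, Ccl6, Ccl9 and Ccl24 was not tested.

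**Figure D5:**
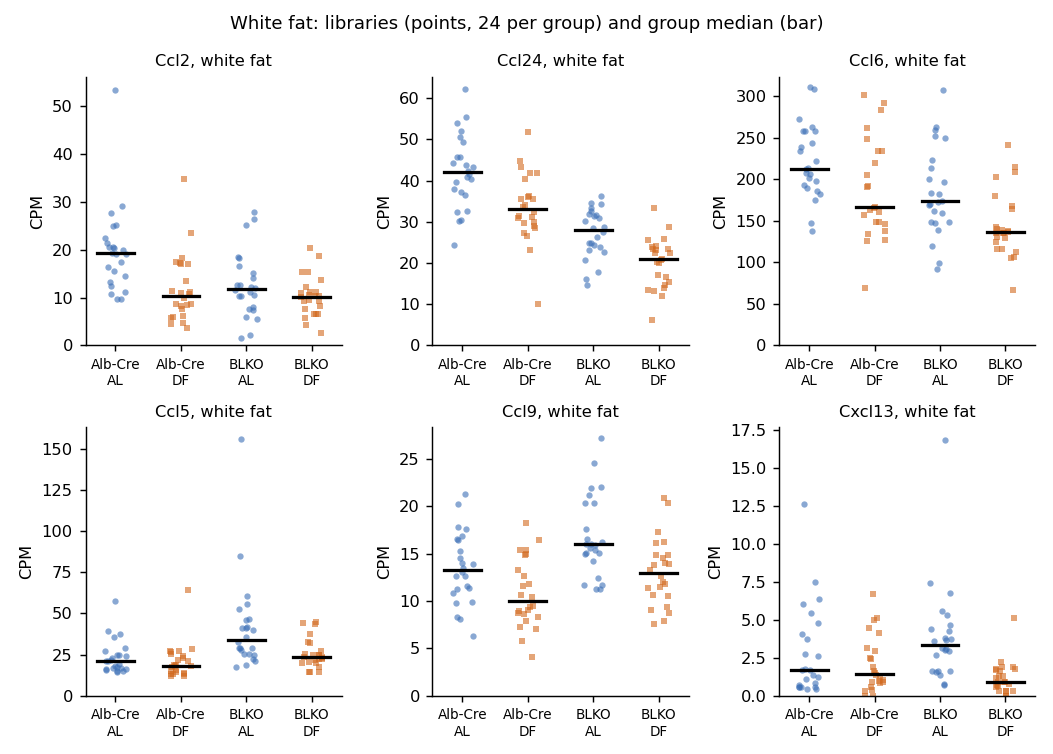
Ccl2, Ccl24, Ccl6, Ccl5, Ccl9 and Cxcl13 in white fat in CPM (y axis) by group (x axis, AL ad libitum and DF daytime-fed), with 24 libraries per group as points and the group median as a bar. The medians fall from 19.2 to 10.3 CPM for Ccl2 in Alb-Cre and from 3.37 to 0.897 CPM for Cxcl13 in BLKO, with overlapping ranges.

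Rhythms in fat were few, near or below the shares over all genes. They were called for 2 of 24 members in ad libitum Alb-Cre (8.13% of all genes), 3 in daytime-fed Alb-Cre (20.5%), none in ad libitum BLKO (4.09%; edgeR, 4 at an unadjusted p under 0.05, and 0 with DESeq2) and 1 in daytime-fed BLKO (7.43%). For the rhythm in ad libitum BLKO fat, DESeq2 gave no adjusted p for several members, Cxcl13 among them, so it could not call them. The pair called in ad libitum Alb-Cre fat, Cxcl10 and Cxcl9, are interferon-induced ligands of Cxcr3, a chemokine receptor carried by T cells, and peaked close together. Cxcl10 ran from 1.97 through 5.40 to 13.0 CPM and peaked at 4.1 ± 1.0 h with 1.01 ± 0.27 (edgeR adjusted p = 0.0116), and Cxcl9 ran from 6.72 through 11.5 to 19.5 CPM and peaked at 5.3 ± 1.2 h with 0.69 ± 0.21 (edgeR adjusted p = 0.0456). Without 6 h both were lost (edgeR adjusted p = 0.053 and 0.26), and Cxcl9 was lost without any of 7 other times as well (highest edgeR adjusted p = 0.16). Cxcl9 was also lost with only the groups compared (edgeR adjusted p = 0.068).

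In daytime-fed Alb-Cre fat, Cxcl14 ran from 4.96 through 10.1 to 28 CPM and peaked at 22 ± 1.1 h with 1.01 ± 0.30 (edgeR adjusted p = 0.0205, and up to 0.10 without 10 or 22 h). Cxcr4 ran from 2.72 through 6.78 to 14.8 CPM and peaked at 8.3 ± 1.5 h with 0.74 ± 0.29 (edgeR adjusted p = 0.0246, and up to 0.099 without 10, 16, 20 or 22 h). Cx3cl1 ran from 2.45 through 7.19 to 67.6 CPM (edgeR adjusted p = 0.0173), and its call rested on library 0B, which stands apart and holds the 67.6 CPM (edgeR adjusted p = 0.84 without the libraries standing apart). With only the groups compared, the calls of Cxcl14, Cxcr4 and Cx3cl1 were all lost (edgeR adjusted p = 0.059, 0.106 and 0.153). In daytime-fed BLKO fat, Ccl12, a mouse monocyte attractant, ran from 1.71 through 3.37 to 11.8 CPM and peaked at 9.9 ± 1.2 h, at the threshold (edgeR adjusted p = 0.0499, and up to 0.13 with any of 10 times left out).

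No change of rhythm with feeding was called in fat, in Alb-Cre (11.4% of all genes; edgeR, 6 members at an unadjusted p under 0.05, and 1 with DESeq2) or in BLKO (8.97%; 4 at an unadjusted p under 0.05, and 0 with DESeq2). No member differed between genotypes in its feeding effect on the mean (3.6%; edgeR, 5 at an unadjusted p under 0.05, and 0 with DESeq2) or on the rhythm (0%; 1 at an unadjusted p under 0.05, and 0 with DESeq2). In that genotype comparison of the mean, DESeq2 gave no adjusted p for several members, Cxcl13 among them, so it could not call them. Cxcl12 had medians of 115 and 114 CPM in Alb-Cre fat and 106 and 103 CPM in BLKO fat, and Ccr2 had 6.68 and 5.71 CPM and 5.27 and 5.11 CPM, with no called change. Cxcl1 and Cx3cr1 were below the filter in fat, with medians no higher than 1.38 and 1.68 CPM.

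Between the genotypes under ad libitum feeding, 7 of 12 members differed in liver (59.4% of all genes), 12 of 24 in fat (62.6%) and 17 of 26 in lung (65.9%). With more than 1 in 2 genes called in every tissue and each genotype in its own table, these differences cannot be told apart from the table.

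Genes that act with chemokines were read from 4 lists. Their counts of changed daily means are to be read against the shares of all genes given above: 4.89% rising and 4.91% falling in Alb-Cre fat, 5.02% and 5.39% in BLKO fat, 2.24% and 2.01% in BLKO liver, and 4.34% and 4.69% in Alb-Cre lung. In fat, the leukocyte integrin chain Itgam and the selectin ligand Selplg, 2 of 10 adhesion and egress genes tested, fell in both genotypes (Itgam -0.37 ± 0.12 in Alb-Cre and -0.45 ± 0.12 in BLKO, with edgeR adjusted p of 0.027 and 0.0078; Selplg -0.30 ± 0.08 and -0.32 ± 0.08, with edgeR adjusted p of 0.0091 and 0.0057). Among inducers and NF-kappaB genes in fat, 2 of 10 fell in Alb-Cre (Nfkb2 and Relb) and 4 of 10 in BLKO (Irf1, Nfkbia, Rela and Stat3), and none rose. Of 9 atypical receptors and chemokines under other symbols in fat, Ccrl2 rose in Alb-Cre (0.45 ± 0.11, edgeR adjusted p = 0.0044). Cmklr1, a receptor of chemerin, was rhythmic in all 4 fat groups and changed in rhythm in both genotypes (edgeR adjusted p = 0.0018 in Alb-Cre and 0.00027 in BLKO). A change of rhythm was called for 11.4% of all genes in Alb-Cre fat and 8.97% in BLKO fat. The other listed genes so called were Ackr4 in Alb-Cre and Itgb2 in BLKO. Of 10 signal transducers in fat, Gnai2, Gnai3 and Arrb1 fell and Grk6 rose in Alb-Cre, and none changed past the threshold in BLKO. The difference between genotypes passed the test for Gnai3 and Grk6, where 3.6% of all genes passed. It did not for Gnai2 and Arrb1. In liver, 1 of 10 inducers and NF-kappaB genes changed its mean, the inhibitor Nfkbia, which fell in BLKO (-0.36 ± 0.09, edgeR adjusted p = 0.0084). S1pr1, the egress receptor, was rhythmic in 3 liver groups and changed in rhythm in both genotypes (edgeR adjusted p = 4.8e-05 and 0.0070). A change of rhythm was called for 28.8% of all genes in Alb-Cre liver and 15.2% in BLKO liver. The other listed genes so called were Irf1, Nfkbia, Arrb2 and Plcb3 in Alb-Cre and Nfkbia in BLKO. In Alb-Cre lung, Ackr4, a scavenger of Ccl19, fell as 1 of 9 atypical receptors and other chemokines (-0.49 ± 0.14, edgeR adjusted p = 0.013), the integrin chain Itga4 fell as 1 of 11 adhesion and egress genes, and Plcb3 rose as 1 of 12 signal transducers. Of 11 inducers and NF-kappaB genes there, Tnfaip3 fell and Nfkbia rose. Rhythms of other listed genes were called too, and the highest counts in 1 list were in ad libitum Alb-Cre. They were 3 of 10 in liver (17.6% of all genes), 4 of 10 in fat (8.13%) and 5 of 12 in lung (15%).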

How the data were processed

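RNA from liver, white fat and lung was measured in 288 libraries. Per the labels' protocols, samples were balanced by qPCR of an actin gene, reverse transcribed with indices in 96-well plates, pooled and amplified by in-vitro transcription. Tools named in the submitters' processing notes are bcl2fastq, cutadapt, STAR, HTSeq and DESeq2, with mm10 as the genome build. Versions, roles and use of strand in counting were not given in the sources used here. Several members tested overlap genes on the opposite strand (Ccl2, Ccl6, Ccl19, Ccl25, Ccl27a, Cx3cr1, Cxcl10, Cxcl11, Cxcl15, Cxcl16, Cxcl17 and Cxcr5). Cx3cr1 also overlaps the protein-coding genes Gorasp1, Csrnp1 and Xirp1 on its own strand. The values used are the counts per gene that the authors deposited in 6 tables, 1 per tissue and genotype; the normalized signal columns that the authors deposited beside them were not used.

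From the counts, 1 edgeR (4.0.16) fit per tissue gave each of 4 groups a mean and a 24 h cosine and sine (12 coefficients, 84 residual degrees of freedom), with TMM factors, the filterByExpr filter, quasi-likelihood F tests and Benjamini-Hochberg adjustment over all genes tested. The filter asked for a level of about 2.75 CPM in liver, 2.98 in white fat and 3.87 in lung in about 20 libraries of the tissue. A member could pass it through 1 group or through libraries spread over the groups. In no group alone was it passed by 2 of 12 members in liver, 6 of 24 in fat and 9 of 26 in lung. These include Ccl24 in liver, Cxcl13 and Ccl12 in fat, and Cxcl5, Ccl19 and Cxcl10 in lung, which were measured at low levels. Peak times came from a cosine fitted to log2 CPM (prior count 2). Genes named are all members called in a feeding contrast or rhythmic in a group, the highest in median count per role, and Cxcl12, Cxcr4, Ccl2, Cxcl1, Cxcl5, Cxcl13, Ccr2, Cx3cl1 and Cx3cr1. The members and gene lists were chosen with earlier results of these data known. The alternatives were DESeq2 (1.42.0), limma (3.58.1), other size factors and filters, a replicate block, only the groups compared, a minimum amplitude, and times or libraries left out. R 4.3.3 and Python 3.11.15 were used, and the fit was tested on simulated data. Gene positions are from GENCODE for mm10, and promoters from RefSeq matched 31 of 45 members. Some items are counted among the genes tested but are not reported here.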

Additional observations from a re-analysis of the deposited data

Results flagged for a closer look

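The feeding effect on the daily mean differed between Alb-Cre and BLKO mice, by a test of the difference itself, for 3 members. These were 2 of 12 in liver (1.73% of all genes) and 1 of 26 in lung (5.72%). None of 24 passed in fat (3.6%). In liver, the difference was -1.32 ± 0.23 (log2, BLKO minus Alb-Cre, edgeR adjusted p = 0.000539) for Ccl6, which rose in Alb-Cre and had a value below 0 in BLKO that did not pass alone. For Ccl5 in liver it was -1.22 ± 0.32 (edgeR adjusted p = 0.0238), with neither genotype past the threshold alone. For Cxcl17 in lung it was -0.39 ± 0.11 (edgeR adjusted p = 0.0154), with a fall in BLKO and a value near 0 in Alb-Cre. The causes were not tested. Without the libraries standing apart, a setting chosen after seeing the data, the differences were -1.30 (edgeR adjusted p = 0.00037) for Ccl6, -1.17 (edgeR adjusted p = 0.033) for Ccl5 and -0.31 (edgeR adjusted p = 0.035) for Cxcl17. The Ccl5 call was lost without 4, 10, 16 or 22 h (highest edgeR adjusted p = 0.13). It was also lost without library 22A of ad libitum BLKO liver (limma adjusted p = 0.053). The Cxcl17 call was lost without 22 h (edgeR adjusted p = 0.054).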

How the results depend on the processing

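Counts of members called are given here as the main count followed by each alternative that moved it by over 1.5 times, and the causes were not tested. No named change of a daily mean, or difference between genotypes in that change, reversed its sign. Rhythm results were compared by adjusted p, which has no direction, so a reversal could not be seen for them. In liver, the mean with daytime feeding in Alb-Cre was called for 1 member and for 2 with either replicate block, with DESeq2 and without the libraries standing apart. In BLKO it was 2, 4 with no filter or a mean of at least 1 CPM, and 1 with only the groups compared or without the libraries standing apart. The genotype difference was 7, 13 with no filter and 11 with the mean filter, and the interaction 2, and 4 with DESeq2. With no filter more members were tested in each tissue, up to 21 in liver against 12 in the main fit, so its counts have a larger base. Rhythms were called for 1 in ad libitum BLKO liver, 0 with only the groups compared, and for 2 in daytime-fed BLKO, 1 with other size factors, either filter, only the groups compared or a 1.5-fold minimum. Changes of rhythm were 3 in Alb-Cre liver, 5 with no filter, and 2 in BLKO, 1 with the mean filter or without the libraries standing apart and 0 with only the groups compared; their interaction was 0, and 1 with either filter.

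In fat, rhythms were 2 in ad libitum Alb-Cre, 1 with either filter and 4 without the libraries standing apart; 3 in daytime-fed Alb-Cre, 0 with only the groups compared; 0 in ad libitum BLKO, 1 without the libraries standing apart; and 1 in daytime-fed BLKO, 0 with other size factors, either filter or the replicate block of letters and 2 with only the groups compared. Changes of rhythm were 0 in Alb-Cre fat, 1 with only the groups compared, DESeq2 or without the libraries standing apart, and 0 in BLKO, 1 without those libraries. In lung, mean changes in Alb-Cre were 0, 1 with either filter; rhythms in daytime-fed Alb-Cre 1, 0 with only the groups compared or the 1.5-fold minimum and 2 without the libraries standing apart; and the change of rhythm in Alb-Cre 1, 0 with DESeq2, where Cxcl5 had no adjusted p.

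Leaving out 1 of the 12 times gave these lowest and highest counts. In liver they were 1 to 2 and 0 to 3 for the mean in Alb-Cre and BLKO, 1 to 3 for its interaction, 6 to 7 for genotype, 2 to 3, 1 to 4, 0 to 2 and 0 to 2 for rhythms in the 4 groups, 2 to 4 and 0 to 2 for changes of rhythm, and 0 to 1 for their interaction. In fat they were 0 to 6, 3 to 6, 0 to 1, 10 to 13, then 0 to 4, 1 to 3, 0 to 1 and 0 to 1, then 0 to 1 and 0 to 1, and 0 to 0. In lung they were 0 to 0, 1 to 1, 0 to 1, 14 to 17, then 3 to 7, 0 to 2, 2 to 4 and 2 to 4, then 1 to 2 and 2 to 3, and 0 to 0.

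Residuals of ad libitum and daytime-fed libraries with the same time and letter correlated over 0.1 in 5 to 9 of 24 pairs. Their median correlations ran from -0.06 to 0.08, and those of differently named libraries from -0.01 to 0.03. In liver and fat the same-named medians were the higher in both genotypes, so these values do not settle whether libraries were paired. With the replicate block, the named calls lost were Ccl12 in daytime-fed BLKO fat (edgeR adjusted p = 0.0506, letter) and the change of rhythm of Ccl19 in BLKO lung (edgeR adjusted p = 0.117, time and letter). Depth limits the members with few reads. With no filter on low counts, up to 21 members in liver, 34 in fat and 42 in lung were tested. The genotype difference was then called for 13, 16 and 22 members, against 7 of 12, 12 of 24 and 17 of 26 with the filter. The shares over all genes without the filter are not given here, so these counts do not show that the filter hid differences.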
